A study of Mus musculus with 5 samples.

Results

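The core pluripotency regulators are the transcription factors Pou5f1 (Oct4), Sox2, Nanog, Sall4, Zfp42 (Rex1), Utf1 and Zfp281, the growth factor Fgf4, the RNA-binding protein Lin28a and the F-box protein Fbxo15. The 10 genes were taken by symbol from the platform annotation, with every probe set listed for exactly 1 gene symbol. This gave 18 probe sets of the 34945 with 1 symbol, which stand for 18193 genes. Of the 18, 16 exceeded the detection filter (the 40th percentile of an array's non-control probe sets, 3.03 to 3.12 on the log2 scale) on at least 1 array. The members below it on all arrays were Utf1 1458333_x_at (2.34 to 2.49) and Fgf4 1449729_at (2.48 to 2.51). Pou5f1, Sox2, Nanog, Zfp42 and Fbxo15 each had 1 kept probe set, and the other 5 genes shared 11.

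The study hybridised RNA from mouse embryonic stem cell lines to 5 Affymetrix arrays, 1 per group. J1 cells on mouse embryonic fibroblast feeders received Tet1 siRNA or control siRNA and were taken 4 days later. E14 cells without feeders were infected with lentivirus carrying Tet1 shRNA3387, Tet1 shRNA2863 or a scramble shRNA and taken after 4 days in puromycin. The lines differ at once in feeders and in the way of depletion, and these cannot be told apart from the line itself. No group has a replicate, and a difference between 2 arrays therefore has no error and is described by size. Values are log2 probe set summaries, and a difference is the log2 value of a depleted array minus that of the control array of its line.

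Oct4 and Sox2 bind DNA together at neighbouring octamer and Sox sites, and with Nanog they regulate one another and most of the other genes named here. Zfp42, Utf1, Fgf4 and Fbxo15 are textbook targets of the Oct4 and Sox2 pair, Sall4 is a partner of Oct4 and Nanog, and Zfp281 restrains Nanog. Lin28a blocks the maturation of let-7 microRNAs, and Fgf4 is the autocrine signal that primes stem cells for lineage commitment. Tet1 is an enzyme that oxidizes 5-methylcytosine, and it is abundant in these cells.

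The windows of 250 bases before the annotated start are shown for the triad Pou5f1, Sox2 and Nanog, for the target Zfp42, and for Lin28a, the member that differed most with shRNA2863 (RefSeq, build GRCm38.p6). Capitals mark the octamer core (TTTGCAT, either strand) and the Sox core (CATTGT, either strand). The motifs did not overlap. Pou5f1 and Nanog have more than 1 annotated start, and the upstream start of each is used. The windows lie at chr17:35505782-35506031 (+), chr3:34649745-34649994 (+), chr6:122707239-122707488 (+), chr8:43307010-43307259 (-) and chr4:134018817-134019066 (-) in the order shown.
Pou5f1: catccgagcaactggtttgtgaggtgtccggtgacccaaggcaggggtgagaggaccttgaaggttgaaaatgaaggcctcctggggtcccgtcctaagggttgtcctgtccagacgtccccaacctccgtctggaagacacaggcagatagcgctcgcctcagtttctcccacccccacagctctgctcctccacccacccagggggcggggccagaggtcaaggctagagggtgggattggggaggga
Sox2: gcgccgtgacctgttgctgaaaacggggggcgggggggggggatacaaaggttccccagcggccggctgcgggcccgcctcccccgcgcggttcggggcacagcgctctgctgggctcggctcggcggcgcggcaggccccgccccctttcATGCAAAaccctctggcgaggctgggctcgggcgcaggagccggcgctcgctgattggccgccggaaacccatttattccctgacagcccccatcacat
Nanog: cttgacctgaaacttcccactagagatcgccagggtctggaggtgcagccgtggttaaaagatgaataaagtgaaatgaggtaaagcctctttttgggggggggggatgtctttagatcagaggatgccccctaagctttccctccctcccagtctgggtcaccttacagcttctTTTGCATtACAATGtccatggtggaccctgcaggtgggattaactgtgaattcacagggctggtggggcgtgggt
Zfp42: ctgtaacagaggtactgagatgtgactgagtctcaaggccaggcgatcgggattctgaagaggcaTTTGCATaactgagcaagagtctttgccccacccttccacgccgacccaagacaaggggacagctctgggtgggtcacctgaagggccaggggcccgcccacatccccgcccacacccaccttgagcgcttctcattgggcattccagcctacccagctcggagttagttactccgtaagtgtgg
Lin28a: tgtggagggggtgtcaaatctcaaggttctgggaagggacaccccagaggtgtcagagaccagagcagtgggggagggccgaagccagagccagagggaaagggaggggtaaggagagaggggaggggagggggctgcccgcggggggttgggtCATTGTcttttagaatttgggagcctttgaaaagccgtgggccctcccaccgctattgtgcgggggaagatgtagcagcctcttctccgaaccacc

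The table of promoters held 8 of the 10 genes, with 10 windows. A gene is counted below if any of its windows held the motif, while the shares of all promoters are per single window. The octamer core was found in the windows of 3 of them, Sox2, Nanog and Zfp42, against 4.12% of all 32851 promoter windows of the same length. The Sox core was found in 3, Nanog, Lin28a and the second window of Pou5f1, against 10.7% of all windows. That second window is not shown, and the Pou5f1 window shown above holds neither motif. In the Nanog window the octamer core began 75 bases before the start and was followed, after 1 base, by the Sox core on the opposite strand, and 0.642% of all windows held both motifs. In Sox2 the octamer core began 99 bases and in Zfp42 185 bases before the start. A match of letters is a description of the window and not a binding site.

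Every depleted array had less Tet1 than its control, with 17.2% left in J1 cells, 30.6% left with shRNA3387 and 54.0% left with shRNA2863 by the brightest Tet1 probe set. The brightest probe set of each of the 10 genes lay above the filter on all 5 arrays, the dimmest reading among them being 8.32 for Fgf4. Over the brightest probe sets of all 13643 kept genes, the array medians were 6.12 to 6.23. These readings describe the members and do not test the embryonic stem cell label. Array medians over the non-control probe sets were 3.45 to 3.52.

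**Figure D1:**
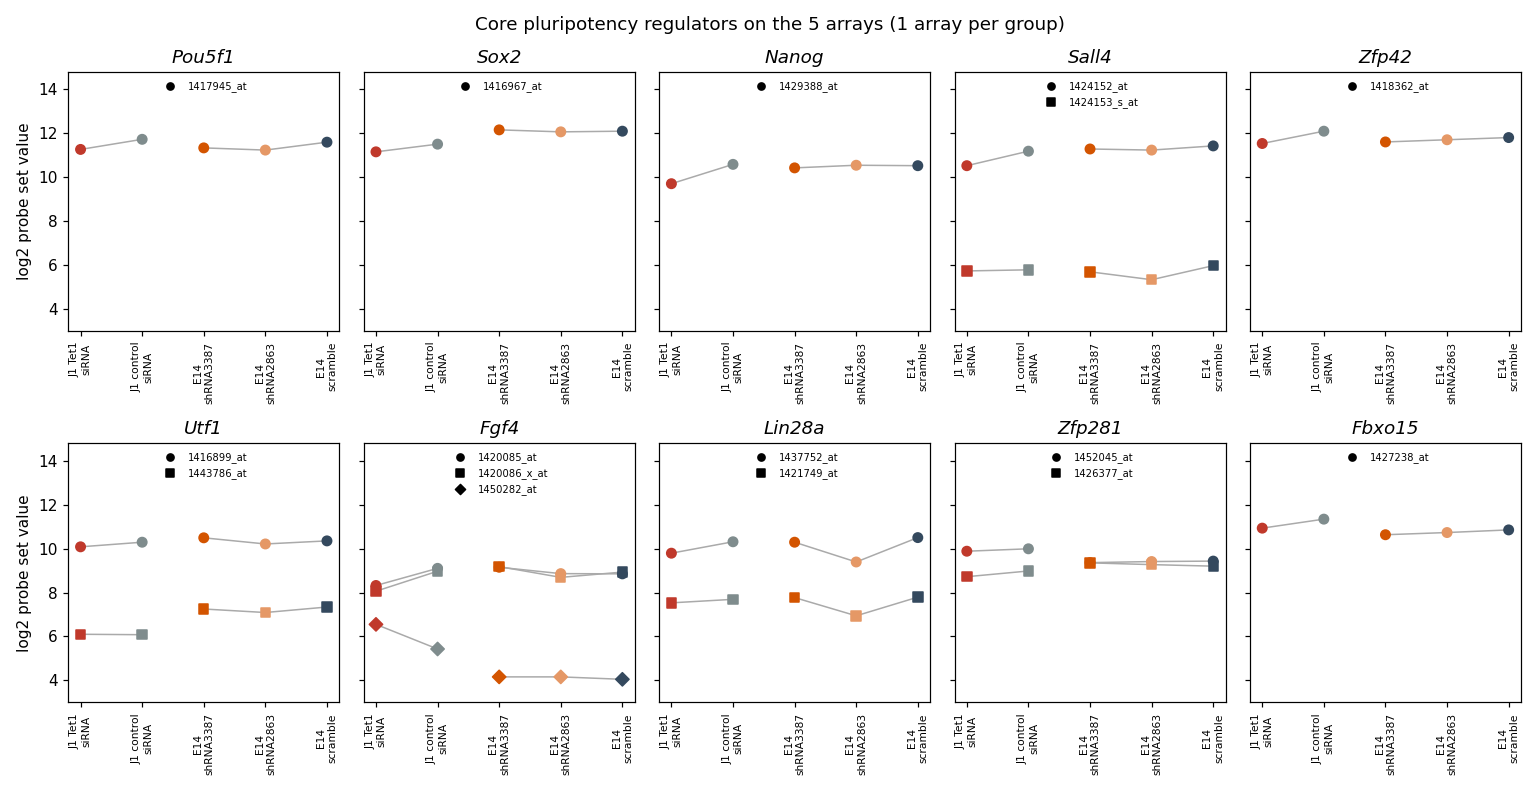
Log2 values of the 16 kept member probe sets on the 5 arrays, with a panel per gene, a marker shape per probe set, 1 point per array and lines joining arrays of the same cell line. The J1 Tet1 siRNA point of Nanog (9.71) lies below its other 4 points, and both Lin28a probe sets are lowest with shRNA2863.

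In J1 cells all 10 genes read lower with Tet1 siRNA than with control siRNA by their brightest probe set, and 14 of the 16 kept probe sets did. Lower by any amount were 45.6% of the 24018 kept probe sets, 56.4% of the 2786 kept probe sets with a mean log2 value of at least 9, and 50.4% of the 13643 kept genes by their brightest probe set. Nanog, Sall4 and Fgf4 differed most, each by at least 1.5-fold, and Zfp281 and Utf1 least. The median difference of the 16 probe sets was -0.38, beside 0.01 over all kept probe sets and -0.05 over those with a mean of at least 9. At least 1.5-fold lower were 4 member probe sets, beside 5.75% of all kept ones and 3.98% of those with a mean of at least 9. At least 2-fold lower were 0 of the members, beside 1.05% of all. The single member at least 2-fold higher was a dim probe set of Fgf4, beside 2.17% of all, so that the Fgf4 probe sets disagree.

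In bulk RNA, fewer cells of a type and less RNA per cell cannot be told apart, so markers of another lineage stand beside these values. Of 15 trophectoderm markers 12 were kept, with Cdx2, Elf5 and Gata3 below the filter on all arrays. Each gene is given by its brightest probe set. In J1 cells 11 of the 12 were higher with Tet1 siRNA, 4 by at least 1.5-fold, beside 45.5% and 2.9% of genes, and their summed linear signal was 11944 with Tet1 siRNA against 8059 with control siRNA. Plac1, a placental gene, read 7.06 with Tet1 siRNA and 4.36 with control siRNA, the keratin Krt18 read 12.46 with Tet1 siRNA and 11.75 with control siRNA, and the homeobox gene Esx1 read 4.60 with Tet1 siRNA and 4.09 with control siRNA. With shRNA3387 6 of the 12 were higher and 2 by at least 1.5-fold, beside 41.7% and 5.39% of genes, and with shRNA2863 11 and 5, beside 41.8% and 3.63%. In E14 cells the sum was 1964 with shRNA3387, 3874 with shRNA2863 and 2497 with scramble. Without the brightest genes, Krt18 and Krt8, the sums were 1439 with Tet1 siRNA and 948 with control siRNA in J1 cells, and 767, 823 and 618 with shRNA3387, shRNA2863 and scramble. For the level of J1 minus E14, limma called 5 of the 12 higher, beside 7.78% of all kept genes. Their part in the J1 values of the members was not tested.

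Among the triad, Pou5f1 read 11.27 with Tet1 siRNA and 11.73 with control siRNA in J1 cells, a difference of -0.46. It read 11.34 with shRNA3387, 11.24 with shRNA2863 and 11.60 with the scramble hairpin in E14 cells, differences of -0.26 and -0.36. The depleted arrays were thus all below the control arrays of both lines, by 1.20-fold to 1.38-fold within a line.

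Sox2 read 11.16 with Tet1 siRNA and 11.51 with control siRNA in J1 cells. It read 12.16 with shRNA3387, 12.07 with shRNA2863 and 12.10 with the scramble hairpin. Its differences were -0.35, 0.06 and -0.03, so the J1 pair differed by 1.27-fold and the E14 arrays lay within 1.06-fold of each other.

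Nanog, the homeodomain factor whose level varies among single stem cells, read 9.71 with Tet1 siRNA and 10.59 with control siRNA in J1 cells. In E14 cells it read 10.43 with shRNA3387, 10.55 with shRNA2863 and 10.53 with the scramble hairpin. The J1 difference of -0.88 (1.84-fold lower) was matched or exceeded in the lower direction by 1.8% of kept probe sets. The 3 E14 arrays and the J1 control array lay between 10.43 and 10.59, and only the J1 Tet1 siRNA array stood apart from them.

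Of the partners, Sall4, a zinc finger factor that maintains Pou5f1 expression, had probe sets with different patterns. The bright one (1424152_at) read 10.53 with Tet1 siRNA and 11.19 with control siRNA in J1 cells, a difference of -0.66, and 11.29 with shRNA3387, 11.24 with shRNA2863 and 11.43 with the scramble hairpin in E14 cells. The dim one (1424153_s_at) differed by -0.05 in J1, by -0.28 with shRNA3387 and by -0.64 with shRNA2863, where it read 5.34 against 5.98 with the scramble hairpin. The bright probe set was lower in J1 and the dim one with shRNA2863, in each case by at least 1.5-fold.

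Zfp281, a zinc finger repressor at the Nanog locus, differed least in J1 cells by its bright probe set. Its probe set 1452045_at read 9.88 with Tet1 siRNA and 9.99 with control siRNA in J1 cells, and 9.36, 9.41 and 9.43 with shRNA3387, shRNA2863 and scramble in E14 cells. Its probe set 1426377_at differed by -0.26 in J1 and by 0.15 and 0.07 with the hairpins. No difference of Zfp281 in a depletion exceeded 1.20-fold.

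Among the targets, Zfp42, a marker of the naive state, read 11.54 with Tet1 siRNA and 12.10 with control siRNA in J1 cells, a difference of -0.56. It read 11.61 with shRNA3387, 11.71 with shRNA2863 and 11.81 with the scramble hairpin. Fbxo15, a substrate receptor of SCF ubiquitin ligases known as a reporter gene in reprogramming, read 10.93 with Tet1 siRNA and 11.34 with control siRNA in J1 cells. In E14 cells it read 10.63 with shRNA3387, 10.73 with shRNA2863 and 10.85 with the scramble hairpin. Both genes were lower on each depleted array than on its control, by 1.07-fold to 1.47-fold.

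Utf1, a chromatin-bound factor that limits activation of bivalent genes, read 10.08 with Tet1 siRNA and 10.29 with control siRNA in J1 cells by its bright probe set (1416899_at). It read 10.49 with shRNA3387, 10.21 with shRNA2863 and 10.35 with the scramble hairpin. The scramble array thus lay between both hairpin arrays. The dimmer probe set 1443786_at differed by 0.02 with siRNA, by -0.09 with shRNA3387 and by -0.25 with shRNA2863.

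Fgf4 was measured by probe sets that went opposite ways in J1 cells. The bright 1420085_at read 8.32 with Tet1 siRNA and 9.10 with control siRNA, and the bright 1420086_x_at, of a class whose probes can also match other transcripts, read 8.06 with Tet1 siRNA and 8.97 with control siRNA. The dim 1450282_at read 6.55 with Tet1 siRNA and 5.43 with control siRNA. The differences were -0.78 and -0.91 for the bright pair and 1.12 (2.17-fold higher) for the dim one. The annotation lists 1 accession for both bright probe sets and another, of a RefSeq transcript, for the dim one. As the probe sets disagree, no direction is given for Fgf4 in J1 cells. In E14 cells the bright 1420085_at read 9.15, 8.86 and 8.85 with shRNA3387, shRNA2863 and scramble, and the dim 1450282_at read 4.16, 4.16 and 4.05.

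**Figure D2:**
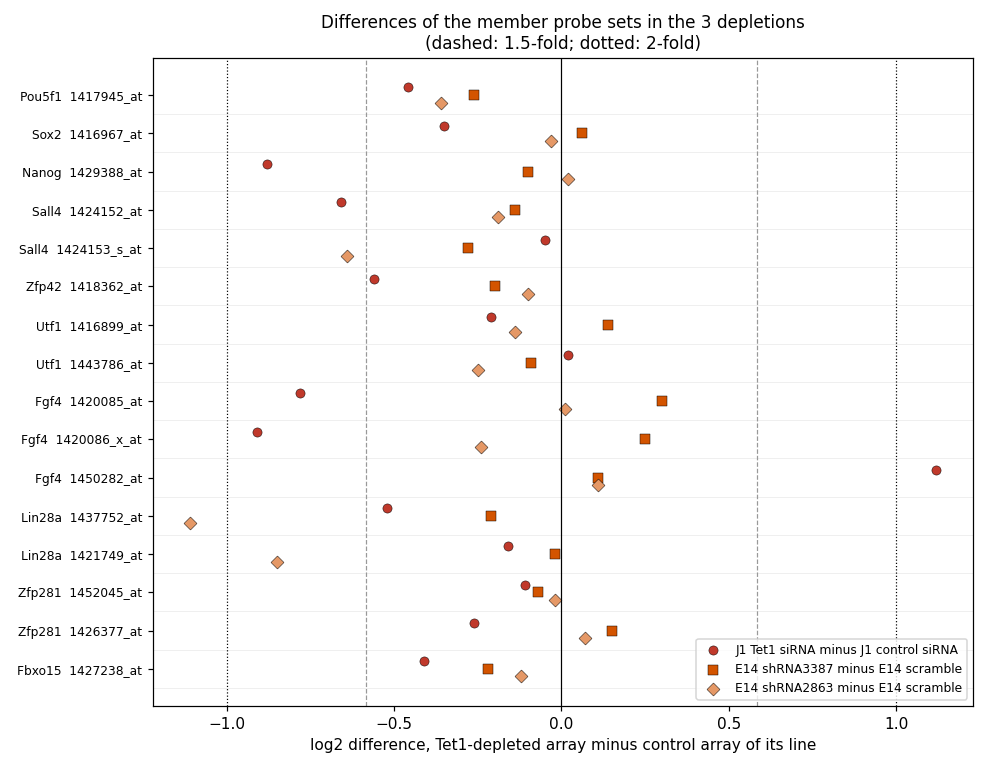
Log2 differences of the 16 kept member probe sets, each depleted array minus the control array of its line, with a row per probe set and a marker per depletion. In J1 the values run from -0.91 to 1.12, with shRNA3387 from -0.28 to 0.30, and with shRNA2863 from -1.11 to 0.11, where the lowest points are those of Lin28a.

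Lin28a had the largest difference from scramble of any member in E14 cells, with shRNA2863. Its bright probe set (1437752_at) read 10.29 with shRNA3387, 9.39 with shRNA2863 and 10.50 with the scramble hairpin, and 9.79 with Tet1 siRNA against 10.31 with control siRNA in J1 cells. Its other probe set (1421749_at) read 7.77 with shRNA3387, 6.94 with shRNA2863 and 7.79 with the scramble hairpin, and 7.53 with Tet1 siRNA against 7.69 with control siRNA in J1 cells. Both probe sets were lowest of all 5 arrays with shRNA2863, by 2.16-fold and 1.80-fold below the scramble array. With shRNA3387 the same probe sets were 1.16-fold and 1.01-fold below it.

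With shRNA2863, 0.4% of kept probe sets differed from scramble by as much as the bright Lin28a probe set in the lower direction, and 1.0% by as much as the other. Directly between the hairpin arrays, Lin28a was 1.87-fold and 1.78-fold higher with shRNA3387 than with shRNA2863. These were the members that differed by at least 1.5-fold between the hairpins, beside 3.78% of kept probe sets in that direction. Tet1 itself was higher with shRNA2863 than with shRNA3387, and the part of the residual Tet1 in the Lin28a difference was not tested.

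The hairpin arrays share the scramble array, and their differences are therefore given side by side only. With shRNA3387, 10 of the 16 kept member probe sets were lower than with scramble, beside 57.4% of all kept probe sets, the median was -0.08 (all kept -0.02), and 0 were at least 1.5-fold lower, beside 3.09% of all. With shRNA2863, 12 of 16 were lower, beside 55.5% of all, the median was -0.13 (all kept -0.01), and 3 were at least 1.5-fold lower, beside 3.15% of all. The 3 were both Lin28a probe sets and the dim one of Sall4. At least 2-fold lower was the bright Lin28a probe set, beside 0.566% of all. Of the 2786 kept probe sets with a mean of at least 9, 45.1% were lower with shRNA3387, with a median of 0.02. With shRNA2863, 42.0% of them were lower, with a median of 0.03. At least 1.5-fold lower were 1.08% of them with shRNA3387 and 1.44% with shRNA2863. Lower in all 3 depletions were 8 of the 16, beside 18.3% of all kept probe sets, and these were the single probe sets of Pou5f1, Zfp42 and Fbxo15, both of Sall4, both of Lin28a and 1452045_at of Zfp281.

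**Figure D3:**
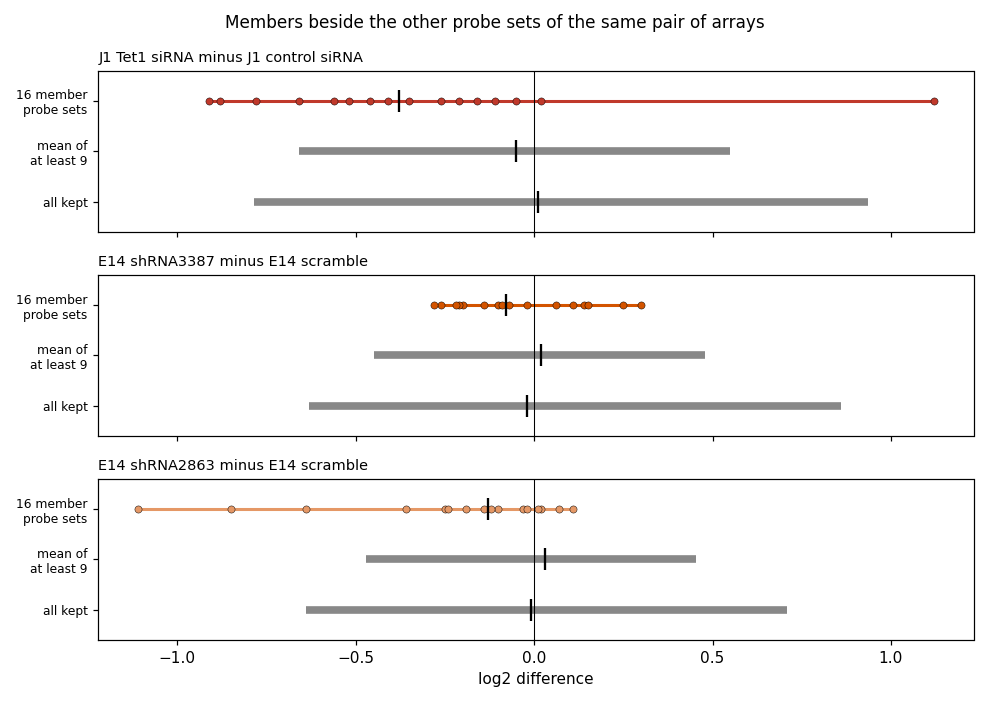
Log2 differences of the 16 kept member probe sets (points, with a line from lowest to highest) beside the middle 95% (grey bars) of the 2786 kept probe sets with a mean of at least 9 and of all 24018 kept probe sets, with a panel per depletion and a tick at each median. In J1 the member median of -0.38 lies left of -0.05 and 0.01, and with the hairpins the member medians are -0.08 and -0.13.

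The pooled effect of Tet1 depletion was tested with limma on all kept probe sets, with a term for the cell line. Its error reflects disagreement among the 3 depletions and rests on 2 residual degrees of freedom. Of the members 0 had an adjusted p under 0.05, as did 0 of the 24018 kept probe sets (0% called), where the lowest adjusted p was 0.737. An unadjusted p under 0.05 was reached by 2 members, beside 6.32% of all. These were Pou5f1, whose fitted value was -0.37 ± 0.07 (SE; limma adjusted p = 0.737; lower on 3 of 3 depleted arrays), and Fbxo15, with -0.27 ± 0.09 (limma adjusted p = 0.737; lower on 3 of 3).

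Beside these, most members had wider errors in the pooled limma fit. The bright Lin28a probe set differed by -0.60 ± 0.32 (SE), Nanog by -0.40 ± 0.23, the bright Sall4 probe set by -0.38 ± 0.14 and Zfp42 by -0.33 ± 0.12. The 95% interval of Nanog ran from -1.07 to 0.27 and that of Sox2 from -0.45 to 0.17 around -0.14. No direction over both lines was shown by the adjusted test for any of the 10 genes.

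Whether the Tet1 effect differed between the lines was tested as J1 effect minus E14 effect by limma with 1 residual degree of freedom, given by the disagreement of the hairpin arrays. Nanog had a difference of effects of -0.84 ± 0.13 (SE; J1 effect -0.88, mean E14 effect -0.04; limma adjusted p = 0.225). The bright Sall4 probe set had -0.50 ± 0.08 (limma adjusted p = 0.22), and the dim Fgf4 probe set 1.01 ± 0.09 (limma adjusted p = 0.17). These were the 3 members with an unadjusted p under 0.05, beside 17.8% of all kept probe sets, and 0 members and 0 probe sets in all (0% called) had an adjusted p under 0.05 in limma. The 95% interval of the bright Lin28a probe set ran from -3.25 to 3.53. The mean of both hairpins against scramble also gave 0 calls at an adjusted p under 0.05 (0% of all), with an unadjusted p under 0.05 for 1 member, Pou5f1 (-0.31 ± 0.07 SE; limma adjusted p = 0.42), beside 11.5% of all.

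Levels in J1 and E14 were compared over all 5 arrays as the line term of the pooled limma fit. Each array of a line had its own treatment, so an SD over the arrays of a line, here and below, is not one between replicates. Sox2 was lower in J1 than in E14, averaging 11.34 ± 0.25 in J1 arrays and 12.11 ± 0.05 in E14 arrays (SD, n = 2 and 3). It read 11.16 to 11.51 on the J1 arrays and 12.07 to 12.16 on the E14 arrays. The fitted difference was -0.80 ± 0.11 (SE; limma adjusted p = 0.0264), and the control arrays alone differed by -0.59. Members called were 4 of 16, beside 17.6% of all kept probe sets, 2 lower in J1 (6.06% of all) and 2 higher (11.6% of all).

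For the other 3 calls a second probe set of the gene was not called, with the opposite sign for Zfp281 and Fgf4. Utf1 1443786_at averaged 6.09 ± 0.01 in J1 arrays and 7.23 ± 0.13 in E14 arrays (SD, n = 2 and 3), a difference of -1.15 ± 0.12 (SE; limma adjusted p = 0.0176), while the bright Utf1 probe set differed by -0.18 ± 0.12 (adjusted p = 0.39). Zfp281 1452045_at differed by 0.52 ± 0.07 (limma adjusted p = 0.0265), and Zfp281 1426377_at by -0.43 ± 0.12 (adjusted p = 0.105). Fgf4 1450282_at differed by 1.96 ± 0.27 (limma adjusted p = 0.0282), and the bright Fgf4 probe sets by -0.28 and -0.48, not called. Sox2 was thus the called gene with no probe set of its own to the contrary, having 1 alone.

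Pou5f1 and Zfp42 differed between the lines by 0.04 ± 0.07 and 0.06 ± 0.12 (SE), with 95% intervals from -0.15 to 0.24 and from -0.29 to 0.40. Nanog differed by -0.42 ± 0.23, but its control arrays read 10.59 in J1 and 10.53 in E14. The calls of level rest on few arrays. With the J1 Tet1 siRNA array, the shRNA3387 array or the shRNA2863 array left out, 0 members and 0 of all kept probe sets were called in limma, and Sox2 then differed by -0.59, -0.75 and -0.80 (limma adjusted p = 0.0857, 0.115 and 0.100).

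Markers of other cell types are set beside these levels. Of 20 fibroblast feeder markers 16 were kept, and Fap, Cdh11, Dcn and Postn were below the filter on all arrays. Between the control arrays, 12 of the 16 were lower in J1 than in E14, beside 56.2% of genes, and the median difference was -0.045. The other 4 were higher. Among the 12, Prrx1, Lum, Fbln2, Lox, Pdgfrb and S100a4 were dim and nearly equal in both lines. They read 3.09 to 4.22 in J1 and 3.13 to 4.25 in E14, with Lox at 3.55 and 3.56. The count of 12 thus rests in part on dim genes that hardly differed. Limma called 2 of the 16 higher in J1 and 0 lower, beside 7.78% and 6.34% of all kept genes. Their summed linear signal was 4835 with Tet1 siRNA and 4509 with control siRNA in J1 cells, and 2686, 3670 and 3629 with shRNA3387, shRNA2863 and scramble in E14 cells. Without Sparc, the brightest, the sums were 2170 with Tet1 siRNA and 2530 with control siRNA in J1 cells, and 2065, 2985 and 2990 in E14 cells, so that the J1 control array was above scramble with Sparc and below it without. In control arrays the collagen gene Col1a1 read 4.39 in J1 and 4.61 in E14, and Thy1 5.13 in J1 and 4.95 in E14. The smooth muscle actin Acta2 read 8.08 in J1 and 8.62 in E14. Another collagen gene, Col1a2, was higher in J1, at 6.24 with control siRNA and 5.95 with Tet1 siRNA. On the E14 arrays Col1a2 read 3.59 with shRNA3387, 3.61 with shRNA2863 and 3.62 with scramble.

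Primed epiblast markers (8 of 10 kept) were lower in the J1 control array than in the scramble array for 6 of the 8, beside 56.2% of genes, and by at least 1.5-fold for 4, beside 9.7%. The median difference was -0.77, and limma called 2 lower in J1, beside 6.34% of all kept genes. Their sums were 3600 with Tet1 siRNA and 3879 with control siRNA in J1 cells, and 6273, 4419 and 4133 with shRNA3387, shRNA2863 and scramble. Without Dnmt3b, the brightest, the sums were 409 with Tet1 siRNA and 528 with control siRNA, and 2120, 1272 and 1257 in E14 cells. With shRNA3387 7 of the 8 were higher than with scramble, 4 by at least 1.5-fold, beside 41.7% and 5.39% of genes. With shRNA2863 these counts were 4 and 1, beside 41.8% and 3.63%. With Tet1 siRNA in J1 cells they were 4 and 1, beside 45.5% and 2.9%. The medians were 0.68 with shRNA3387, 0.055 with shRNA2863 and -0.03 with Tet1 siRNA. Zic2, a zinc finger factor, read 3.65 in the J1 control array and 6.44 in the scramble array, Fgf5 2.37 and 2.91, and Sox3 5.01 and 3.73. Fgf5 was below the filter on both control arrays and was kept through the shRNA3387 array alone. Its place among the 6 lower markers is therefore not a difference between detected levels.

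Primitive endoderm markers (11 of 16 kept) summed to 1553 with Tet1 siRNA and 1239 with control siRNA in J1 cells, and to 1052, 860 and 984 with shRNA3387, shRNA2863 and scramble. Among them, in control arrays, the collagen gene Col4a1 read 8.54 in J1 and 6.84 in E14, the laminin gene Lama1 5.88 in J1 and 7.0 in E14, and Sox7 3.15 in J1 and 3.67 in E14. Limma called 2 of the 11 higher in J1, beside 7.78% of all kept genes. Between the control arrays 6 of the 11 were lower in J1 and 4 higher. With Tet1 siRNA in J1 cells 8 of the 11 were higher, beside 45.5% of genes. Without Lamb1 and Col4a1, the brightest, the sums were 433 with Tet1 siRNA and 358 with control siRNA. In E14 cells they were then 304, 251 and 332. Gata4, Gata6, Sox17 and Sox7 were dim, at 3.03 to 3.84 over the 5 arrays. Neuroectoderm markers (6 of 10 kept) summed to 364 with Tet1 siRNA and 418 with control siRNA, and to 339, 341 and 494 in E14 cells. All 6 were lower in the J1 control array than in the scramble array, beside 56.2% of genes. On these arrays Pax6 read 4.61 and 5.33, Tubb3 8.14 and 8.36 and Nes 5.62 and 5.82. For level, limma called 1 of the 6 lower in J1, beside 6.34% of all kept genes. The part of these cell types in the levels of J1 and E14 was not tested.

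**Figure D4:**
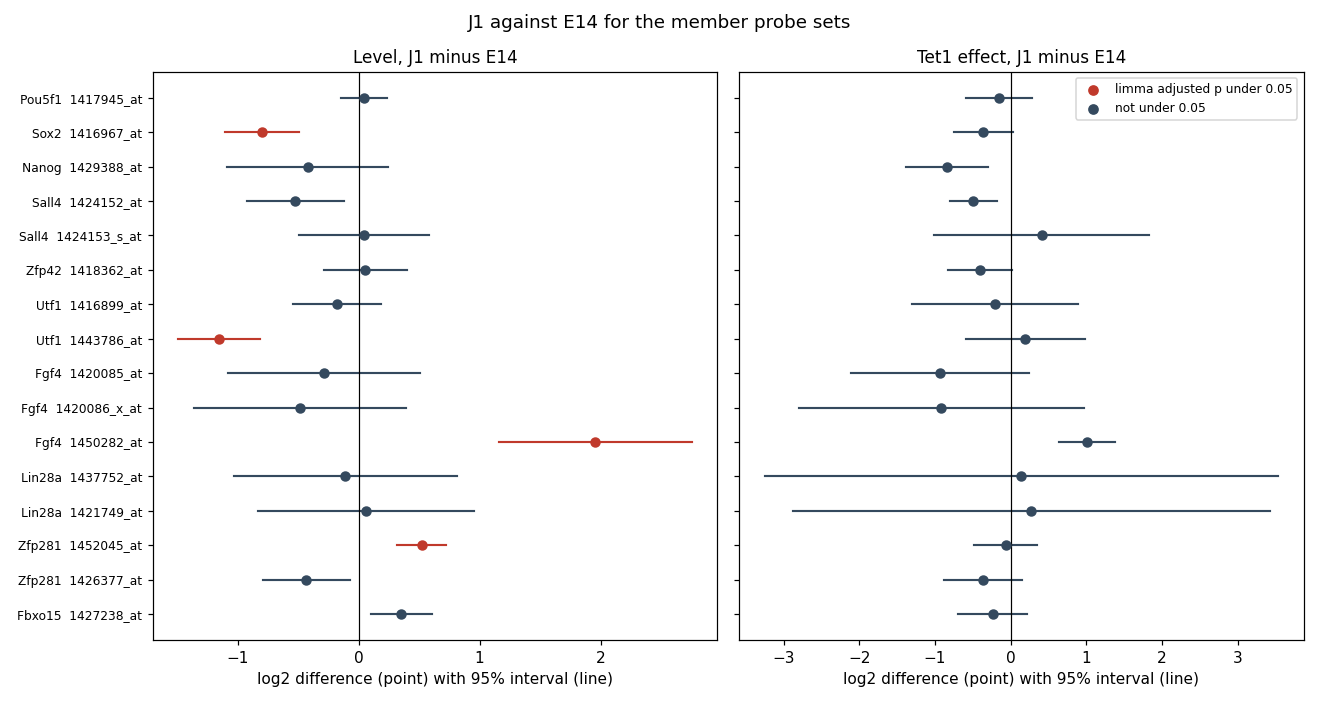
Fitted log2 differences with 95% intervals for the 16 kept member probe sets from limma, the level in J1 minus E14 on the left and the Tet1 effect in J1 minus that in E14 on the right, with separate scales. Red points have an adjusted p under 0.05, which Sox2, Utf1 1443786_at, Fgf4 1450282_at and Zfp281 1452045_at reach for level and no member reaches for the difference of effects.

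The wider network was read from lists of genes, each gene by its brightest kept probe set. Of 20 naive factors, all 20 were lower with Tet1 siRNA in J1 cells, 11 by at least 1.5-fold, beside 50.4% and 6.11% of the 13643 kept genes. With shRNA3387, 17 were lower and 3 by at least 1.5-fold, beside 57% and 3.36% of genes, and with shRNA2863, 12 were lower and 2 by at least 1.5-fold, beside 55.1% and 3.26%. Their medians were -0.72, -0.29 and -0.04, beside -0.01, -0.02 and -0.01 over all kept genes. By mean size over the depletions, Gbx2, Tcl1 and Tbx3 led the list. Gbx2, a homeobox factor, differed by -1.29, -1.32 and -1.25, and Tcl1, a coactivator of Akt, by -1.46, -0.65 and -0.66. Tbx3, a T-box factor downstream of LIF, read 7.54 with shRNA3387, 8.95 with shRNA2863 and 8.94 with scramble, and 7.25 with Tet1 siRNA against 7.77 with control siRNA in J1 cells.

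Of 24 kept partners of Oct4 and Nanog, among them the NuRD and BAF chromatin subunits, 22 were lower with Tet1 siRNA in J1 cells, 4 by at least 1.5-fold, beside 50.4% and 6.11% of genes, and the median was -0.29. With shRNA3387 7 were lower and with shRNA2863 8, beside 57% and 55.1% of genes, with medians of 0.065 and 0.07. The BAF subunit Smarcd1 read 7.61 with shRNA3387, 6.60 with shRNA2863 and 7.79 with scramble, and 6.38 with Tet1 siRNA against 7.30 with control siRNA in J1 cells. The orphan receptor Esrrb, on the naive list as well, differed by -1.21, -0.28 and -0.23, and Arid3b by -0.28, 0.98 and 0.97, each in the order siRNA, shRNA3387, shRNA2863.

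Around Lin28a, 15 genes of let-7 processing and let-7 targets were kept, with medians of 0.01, 0.21 and 0.01 in the 3 depletions. The chromatin protein Hmga2, a let-7 target, differed by 1.02, 0.63 and 0.75, the uridylyltransferase Tut4, which acts with Lin28 on let-7 precursors, by 0.13, 0.91 and 0.81, and Mycn by -0.71, 0.21 and -0.17. The Fgf4 receptors and adaptors (13 kept) had medians of 0.01, -0.02 and 0.18, with Ptpn11 at 0.29, 0.76 and 0.79, Fgfr1 at 0.20, 0.66 and 0.30 and Fgfr2 at -0.10, -0.26 and -0.78. The SCF partners of Fbxo15, Cul1 and Skp1, differed by at most 0.31 in size.

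Among 14 kept paralogues of the members, medians were 0.01, 0.31 and -0.01. Sox3, which shares its DNA-binding class with Sox2, read 6.61 with shRNA3387, 5.52 with shRNA2863 and 3.73 with scramble, while Sox2 stayed within 1.06-fold on the same arrays. Sox15 differed by 0.62 in J1 siRNA, -1.04 with shRNA3387 and -0.88 with shRNA2863. Fgf5, which like Sox3 is also a marker of primed epiblast, read 6.65 on the shRNA3387 array and 2.37 to 2.91 on the other 4 arrays. In the pooled limma fit by gene, 0 genes of each list were called. For the level of J1 minus E14, limma called 6 naive factors lower and 1 higher of 20, 4 partners lower and 1 higher of 24, 3 Fgf4 receptor and adaptor genes lower and 3 higher of 13, 1 let-7 gene lower of 15, and 0 paralogues, beside 6.34% of all kept genes called lower, 7.78% higher and 14.1% in either direction.

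The genes closest to a member over the 5 arrays were sought for members whose brightest probe set spanned at least 1 log2 unit, which Sox2 and Lin28a did. Likeness was the Euclidean distance between values centred on their mean over the 5 arrays. Nearest to Sox2 were Gnl3l (distance 0.06), Bola1 (0.08) and Rabl6 (0.11). Nearest to Lin28a were Fah (0.18), Dus4l (0.23) and Phf20 (0.30), with differences of -1.13, -0.87 and -0.77 with shRNA2863 and of -0.18, -0.12 and 0.01 with shRNA3387. With 5 arrays and 13643 genes, such nearness is a description.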

How the data were processed

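The arrays were hybridised with biotinylated cRNA made with an Affymetrix kit, per the labels' protocols. The deposited values are log2 probe set summaries, as their range of 1.38 to 14.12 shows. How the authors summarised, corrected and normalized the probes is not given in the sources used here, and the values were used as deposited. The annotation of the platform gave the gene symbols. Of the 45101 probe sets, 64 were array controls, and of the rest 34945 had 1 symbol, 932 several and 9160 none. A probe set with 1 symbol was kept if any array put it above the 40th percentile of that array's non-control probe sets, which left 24018. The brightest of each gene gave 13643 genes.

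Differences were tested with limma 3.58.1 (R 4.3.3, prior variance following a trend on level), two-sided, and p-values were adjusted by Benjamini and Hochberg's method over everything kept, with a threshold of 0.05. The pooled fit alone was also run on simulated arrays with known changes, and the outcome is not given here. Lone arrays were assumed to vary like the others. The labels name no separate cultures, so a p-value reflects these arrays' spread alone, and precision is bounded by how few arrays there are. The members, the lists and the naming rule were chosen with earlier results of these data known. Named were the 10 members, Tet1, at most 3 genes per list, those with the largest mean absolute difference over the depletions, and the 3 nearest genes of members spanning at least 1 log2 unit. Krt8, Sparc, Dnmt3b and Lamb1, the brightest of their lists, Col1a2 and the markers called dim or below the filter were named after their values were seen. Promoter sequences are from RefSeq on GRCm38.p6, matched by symbol. As alternatives, quantile normalization or median centring was applied, the filter was dropped or set at the 60th percentile, probe sets were combined by gene, limma was run without the trend or the line term, the controls were compared alone, the fold threshold was lowered to 1.5-fold, and arrays were left out in turn.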

Additional observations from a re-analysis of the deposited data

How the results depend on the processing

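No paired analysis was possible because the labels give no replicate numbers and each group holds 1 array. The 10 genes' brightest probe sets were all lower in J1 under quantile normalization, median centring and both other filters. Combining probe sets by gene gave a J1 median of -0.49 (brightest), and 0 members at least 2-fold higher by the brightest or the median, against 1 by probe set. By the median 0 members were at least 2-fold lower with shRNA2863, against 1. A 1.5-fold threshold gave 4 members lower in J1 and 3 with shRNA2863. Quantile normalization gave 83 calls for the difference of effects, 0 of them members. For level, 1926 genes (2 members) were called by the brightest and 2212 (2 members) by the median probe set, and with each array left out in turn 0 to 2134 probe sets (0 to 3 members), against 4238 (4 members).

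No result whose sign turned had been called. Without the line term the pooled difference was 0.023 for Zfp281 1426377_at and 0.10 for Utf1 1443786_at. For the hairpin mean, Fgf4 1420086_x_at was -0.0385 under quantile normalization, Nanog 0.005 under median centring and Zfp281 0.0325 by the median probe set. For level, quantile normalization gave -0.047 for Lin28a 1421749_at and -0.11 for Sall4 1424153_s_at, and the controls alone gave 0.06 for Nanog, -0.19 for Sall4 1424153_s_at, 0.25 and 0.04 for the bright Fgf4 probe sets and -0.10 for Lin28a 1421749_at. With each array left out in turn, the pooled difference ran from -0.35 to 0.015 for Sox2, from -0.78 to 0.16 and from -0.91 to 0.005 for the bright Fgf4 probe sets, from -0.26 to 0.11 for Zfp281 1426377_at and from -0.17 to 0.02 for Utf1 1443786_at. The level difference ran from -0.02 to 0.13 for Pou5f1, from -0.12 to 0.29 for Zfp42, from -0.78 to 0.06 for Nanog, from -0.69 to 0.25 and from -0.88 to 0.04 for the bright Fgf4 probe sets, from -0.17 to 0.25 for Lin28a 1421749_at, from -0.345 to 0.105 for Lin28a 1437752_at and from -0.19 to 0.22 for Sall4 1424153_s_at. The cause was not tested.

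The hairpin mean and the difference of effects could not be tested without a hairpin array, which leaves no residual degree of freedom, nor the difference of effects without a J1 array. Signal over background was not analysed here, and the detection filter alone bounds dim probe sets.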
